A study of Mus musculus with 15 samples.

Results

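The 10 genes described here belong to the circadian clock of mouse embryonic fibroblasts (MEFs). They were taken by symbol: the period genes Per1, Per2 and Per3, the cryptochrome genes Cry1 and Cry2, Arntl, Nr1d1, Nr1d2, Dbp and Bhlhe41. All 10 were found by their Ensembl identifiers among the 46603 genes listed in each sample, and all 10 were among the 15997 genes that were tested after genes with few counts were left out. Counts of these genes ranged from 17 for Per2 in a sample of untreated cells at day 3 to 3081 for Nr1d2 in a sample at day 0.

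RNA-Seq counts came from 15 samples, 3 in each of 5 conditions, and total counts per sample lay between 24030558 and 37281126. All cells were wild-type MEFs of the BALB/c strain, from embryos of 10.5 days, kept in growth medium (DMEM with 10% foetal bovine serum). MEFD0 cells were taken at day 0, before treatment. MEFD3plu cells had spent 3 days in differentiation medium, which adds to the growth medium dexamethasone at 1 µM, rosiglitazone at 10 µM, insulin at 10 µg/mL and IBMX (isobutylmethylxanthine) at 0.5 mM. MEFD5plu cells went from that medium back to growth medium until day 5. MEFD3min and MEFD5min cells were kept in growth medium alone to day 3 and day 5. IBMX blocks the breakdown of cAMP, dexamethasone activates the glucocorticoid receptor, and rosiglitazone activates Pparg.

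The replicates carried the numbers 1, 3 and 4 in every condition. The labels do not say whether they came from separate cultures or embryos, so the p-values measure the spread between these samples, which may be technical. MEFs are a mixture of embryonic cells. Levels are given in CPM, counts scaled to a library of 1000000 counts with TMM (trimmed mean of M values) factors. The 8 fibroblast markers examined were present in every condition. Their summed level was 18029 to 25597 CPM in MEFD3min and 8268 to 11962 CPM in the other conditions. The members did not move together. From MEFD0 to MEFD3min, 4 rose and 3 fell (edgeR, adjusted p under 0.05), beside 31.4% and 28.6% of all genes. Mean Col3a1 went from 215 to 8681 CPM and mean Vim from 6542 to 2814 CPM. Summed endothelial markers stayed at 0.125 to 2.23 CPM, epithelial ones at 0 to 1.19 CPM and muscle ones at 0.0265 to 2.11 CPM. Markers of macrophages stayed at 2.07 to 6.97 CPM in sum, with Adgre1 at 0 in every sample, and Sox10 of neural crest cells was at 0 throughout, while the summed neural list was at 39.2 to 42.1 CPM in MEFD0 and at 7.44 to 21.3 CPM elsewhere. The part of these shifts in the results on clock genes was not tested. In such bulk samples, fewer cells that express a gene and less of its RNA per cell cannot be told apart.

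The treatment itself was visible in the 6 adipocyte genes examined, which all rose in treated cells at both days. Plin1, which coats lipid droplets, was at least 1809-fold higher in MEFD3plu than in MEFD3min, where it was at the floor of 3 counts per library. Adipoq, which encodes the hormone adiponectin, was at least 9110-fold higher in MEFD5plu than in MEFD5min.

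The mammalian clock is a loop of transcription and repression that runs in nearly every cell, fibroblasts and adipocytes included. ARNTL (also called BMAL1) pairs with CLOCK and activates genes through E-box sequences, among them the Per, Cry, Nr1d, Dbp and Bhlhe genes. PER and CRY proteins then repress that pair. NR1D1 and NR1D2 (the REV-ERBs) repress Arntl through RRE sequences, DBP activates genes through D-box sequences, and BHLHE41 competes for E-boxes. In cultured fibroblasts the clocks of single cells are set to a common phase by serum, by dexamethasone or by agents that raise cAMP, and Per1 and Per2 are themselves direct targets of the glucocorticoid receptor and of CREB. Each condition was harvested at a single time, and the hour of harvest is not given in the sources used here. A change in a gene's mean level and a change in the phase of its daily rhythm therefore cannot be told apart in these data.

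The sequences just upstream of the genes were read from the RefSeq promoter table (GRCm38.p6), which held 9 of the 10 genes, all but Per2. In the 250 bases before each start, the E-box CACGTG was found upstream of Per1, Cry1 and Bhlhe41. Of all 32851 promoters of that length, 6.02% hold it. For Per1 only the entry printed below held it, and the other entry (chr11:69099902-69100151) did not. The 9 genes had 11 entries, whereas the shares of all promoters are counted per entry. The variant CACGTT, read on either strand, was found upstream of Cry1, Cry2 and Nr1d1 (3.85% of all promoters). The D-box, searched as TTATGTAA or TTACGTAA on both strands, occurred only upstream of Per3, at 2 places that start 205 and 158 bases before the transcription start (0.931% of all promoters hold it). The 4 stretches are shown because they hold the E-box or the D-box, and because the 3 genes with an E-box did not follow the same pattern in the counts. Each is printed 5′ to 3′ on the strand of the gene, in lower case, with the E-box, its variant or the D-box in capitals, and each stops before the first annotated exon base of the gene it meets. That of Per1 (chr11:69098699-69098947, plus strand) lies within an intron of a longer transcript that GENCODE gives to the gene. Those of Per3 (chr4:151044666-151044915), Cry1 (chr10:85185065-85185304) and Bhlhe41 (chr6:145865559-145865670) are on the minus strand, directly upstream of the gene.
Per1: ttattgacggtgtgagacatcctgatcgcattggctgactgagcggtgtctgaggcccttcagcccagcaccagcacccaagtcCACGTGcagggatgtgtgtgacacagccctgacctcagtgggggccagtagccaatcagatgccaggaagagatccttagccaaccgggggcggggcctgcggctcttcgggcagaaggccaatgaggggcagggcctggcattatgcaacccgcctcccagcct
Cry1: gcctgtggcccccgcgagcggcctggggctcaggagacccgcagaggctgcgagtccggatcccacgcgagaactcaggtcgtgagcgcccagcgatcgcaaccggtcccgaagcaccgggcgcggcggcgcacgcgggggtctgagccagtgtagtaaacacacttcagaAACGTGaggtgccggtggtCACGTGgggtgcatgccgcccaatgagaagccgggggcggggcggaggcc
Bhlhe41: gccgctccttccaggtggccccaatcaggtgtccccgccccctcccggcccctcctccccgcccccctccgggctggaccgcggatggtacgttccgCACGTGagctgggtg
Per3: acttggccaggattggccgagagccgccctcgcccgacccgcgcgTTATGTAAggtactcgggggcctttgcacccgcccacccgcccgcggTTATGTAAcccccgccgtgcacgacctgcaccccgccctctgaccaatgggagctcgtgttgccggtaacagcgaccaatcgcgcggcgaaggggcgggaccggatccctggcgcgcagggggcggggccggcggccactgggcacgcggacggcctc

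The full cAMP response element TGACGTCA (1.55% of all promoters), the glucocorticoid response element (0.387%) and the RRE (0.332%) had no match in these windows of the 9 genes. The core TGACG, with which the full element begins, was found upstream of Per1, Cry1 and Cry2 (17.8% of all promoters). A match describes the letters only, and elements farther from the start were not searched.

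**Figure D1:**
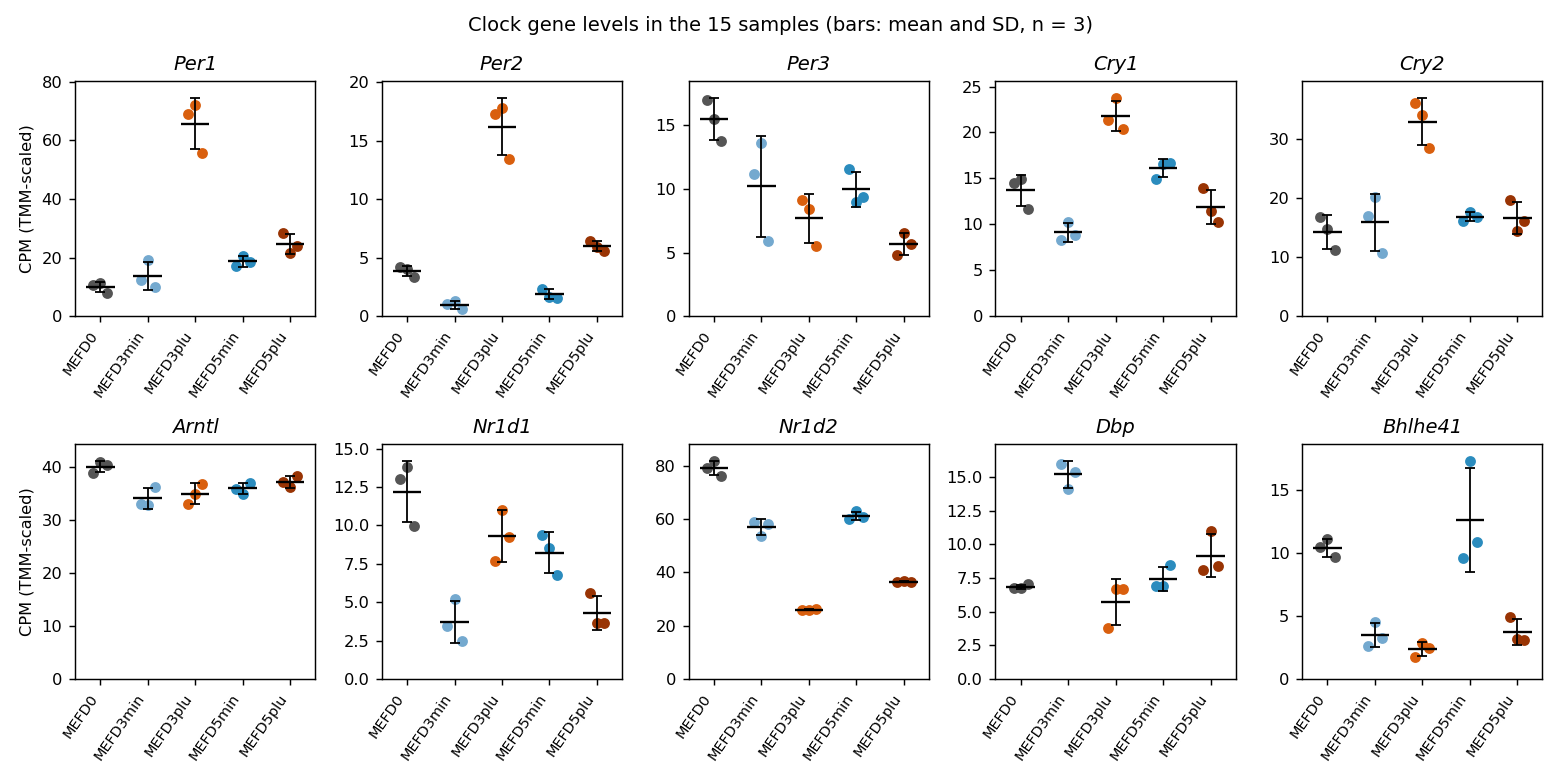
Levels of the 10 clock genes in TMM-scaled CPM on the vertical axis, on a linear scale from 0, for the 5 conditions on the horizontal axis. Points are the 3 samples, and bars show the mean and SD (n = 3). Per1, Per2, Cry1 and Cry2 were highest in MEFD3plu, Nr1d2 was lowest there at 25.8 to 26.1 CPM, and Arntl stayed between 32.8 and 40.8 CPM in all 15 samples.

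Measured per kilobase of exon, so that genes can be compared, the mean level of Nr1d2 was the highest of the 10 in MEFD0, at 14.6 CPM per kb. Arntl followed at 5.31 CPM per kb, Cry1 at 4.10 CPM per kb and Nr1d1 at 3.98 CPM per kb, and Per2 was the lowest at 0.661 CPM per kb. In MEFD3plu the order changed. Per1 had the highest level there, at 11.7 CPM per kb, and Nr1d2 had dropped to 4.80 CPM per kb, near Cry2 at 5.22 CPM per kb and Arntl at 4.64 CPM per kb. The lowest level among the 10 in MEFD3plu was that of Bhlhe41, at 0.349 CPM per kb.

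At day 3, in MEFD3plu/MEFD3min, 7 of the 10 clock genes passed the test (edgeR's quasi-likelihood test, Benjamini-Hochberg adjusted p under 0.05 over all genes tested), where 56.1% of all genes did. Per1, Per2, Cry1, Cry2 and Nr1d1 were higher in treated cells (5 of 10, beside 28.0% of all genes), and Nr1d2 and Dbp were lower (2 of 10, beside 28.0%). The share of 7 in 10 lies near the background, whereas the size of the changes did not. The median absolute log2 fold change was 1.20 for the clock genes and 0.49 for all genes. The 10 genes were chosen with earlier results of these data known, so this difference is no independent test. At day 5, in MEFD5plu/MEFD5min, 6 of 10 passed, beside 50.5% of all genes. Among those that passed, Per2 was higher (1 of 10, beside 26.3% of all genes), and Per3, Cry1, Nr1d1, Nr1d2 and Bhlhe41 were lower (5 of 10, beside 24.2%), with a median absolute log2 fold change of 0.59 against 0.42 for all genes.

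**Figure D2:**
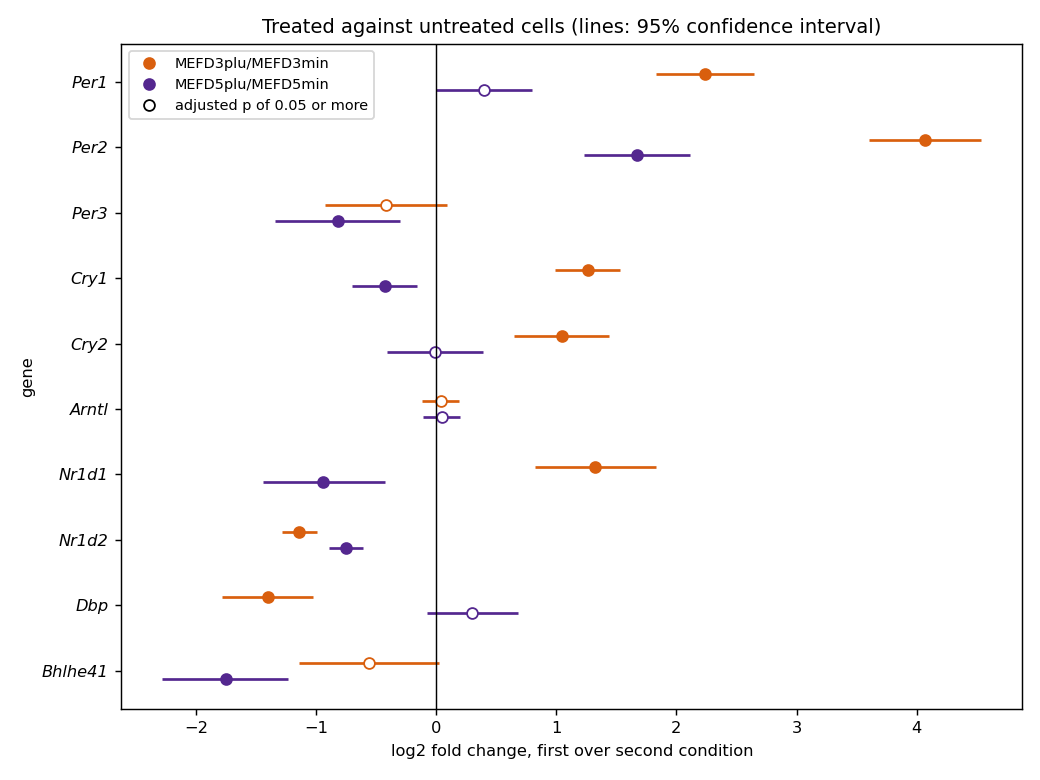
Log2 fold change of each clock gene between treated and untreated cells (horizontal axis) at day 3 and day 5, with lines for the 95% confidence interval, filled points for genes with an adjusted p under 0.05 and open points for the others. At day 3 the changes reach from -1.40 for Dbp to 4.07 for Per2. At day 5 they reach from -1.75 for Bhlhe41 to 1.67 for Per2.

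Per2 showed the largest response to treatment among the 10 at day 3. This protein-coding gene (ENSMUSG00000055866, chr1:91415982-91459324 on the minus strand, GRCm38 and GENCODE M21 as for all positions of genes) encodes a PER protein of the repressor complex. Its level was 4.18, 4.06 and 3.38 CPM in MEFD0, 1.00, 1.26 and 0.572 CPM in MEFD3min and 17.3, 17.8 and 13.4 CPM in MEFD3plu. It was 2.35, 1.67 and 1.57 CPM in MEFD5min and 6.40, 5.93 and 5.58 CPM in MEFD5plu. No condition overlapped with its neighbour in this order, and all 4 neighbouring pairs differed, with MEFD3plu at the top, then MEFD5plu, MEFD0, MEFD5min and MEFD3min. Per2 was 16.8-fold higher in treated cells at day 3 (log2 fold change 4.07 ± 0.224, SE, adjusted p = 8.19e-11) and 3.19-fold higher at day 5 (1.67 ± 0.208, adjusted p = 4.7e-06). Its range over the 5 condition means, 4.07 on the log2 scale, was larger than that of 94.2% of the genes tested. In untreated cells it fell 4.02-fold from day 0 to day 3 (log2 fold change -2.01 ± 0.232, adjusted p = 9.91e-07), so part of the distance between MEFD3plu and MEFD3min lay in the low value of the untreated cells. Against MEFD0, Per2 was 4.18-fold higher in MEFD3plu (adjusted p = 4.37e-08).

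Per1, the paralogue that responds to hormones and cAMP within minutes, was at 10.5, 11.4 and 7.93 CPM in MEFD0, 12.2, 19.3 and 10.0 CPM in MEFD3min and 69.1, 72.0 and 55.7 CPM in MEFD3plu. At day 5 it was at 17.1, 20.6 and 18.6 CPM in MEFD5min and 28.3, 21.7 and 23.9 CPM in MEFD5plu. The gene is ENSMUSG00000020893 at chr11:69095217-69109960 on the plus strand. The MEFD3plu samples stood far above all others, and the untreated samples of day 0 and day 3 overlapped. Per1 rose 4.72-fold with treatment at day 3 (log2 fold change 2.24 ± 0.195, adjusted p = 3.33e-08) and 6.60-fold from MEFD0 to MEFD3plu (2.72 ± 0.200, adjusted p = 2.29e-09). At day 5 the samples of treated cells were all above those of untreated cells, yet the difference of 0.40 ± 0.190 missed the threshold (95% confidence interval -0.00 to 0.80, adjusted p = 0.0928). It passed in 5 of 22 alternative settings, among them the fits without MEFD3min replicate 3 (0.40, adjusted p = 0.0213) and without MEFD3min replicate 4 (0.40, adjusted p = 0.0447). In untreated cells Per1 rose by 0.91 ± 0.198 between day 0 and day 5 (adjusted p = 0.00112), the only clock gene called higher in MEFD5min than in MEFD0.

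The rise of Per1 from MEFD0 to MEFD3min, 0.48 ± 0.199 (adjusted p = 0.0455), was not stable. It lost its call in 12 of 22 alternatives, and without MEFD3min replicate 3 the log2 fold change was 0.16 (adjusted p = 0.423). With the size factors of DESeq2 the value was 0.47 (adjusted p = 0.0503). With total counts alone it was 0.37 (adjusted p = 0.154), and with only the compared samples 0.47 (adjusted p = 0.116). The call was also lost, at 0.34 to 0.52 (adjusted p of 0.0507 to 0.192), when MEFD0 replicate 1 or 4, MEFD3plu replicate 1 or 3, any MEFD5min replicate or MEFD5plu replicate 4 was left out.

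Per3, the period gene that the core loop can do without, took another course (ENSMUSG00000028957, chr4:151003652-151044665, minus strand). Its level was 17.0, 15.5 and 13.8 CPM in MEFD0, 11.2, 13.6 and 5.88 CPM in MEFD3min and 9.17, 8.40 and 5.50 CPM in MEFD3plu. It was 11.6, 8.96 and 9.38 CPM in MEFD5min and 4.83, 6.51 and 5.67 CPM in MEFD5plu. Every MEFD0 sample was above every other sample, the 4 later conditions overlapped with their neighbours in the order, and the treated cells of day 5 were lowest on average. Treatment lowered Per3 at day 5 by 1.76-fold (log2 fold change -0.82 ± 0.245, adjusted p = 0.0104). At day 3 the difference of -0.42 ± 0.240 was not called (95% confidence interval -0.93 to 0.09, adjusted p = 0.148), although it was without MEFD3min replicate 4 (-0.70, adjusted p = 0.00435). From MEFD0, Per3 was 2.02-fold lower in MEFD3plu (adjusted p = 0.00129) and 2.73-fold lower in MEFD5plu (adjusted p = 5.44e-05).

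Within a sample the ratio of Per2 to Per3, both in CPM and not corrected for their exon lengths, was 0.244 to 0.261 in MEFD0, 0.0899 to 0.0971 in MEFD3min and 0.167 to 0.203 in MEFD5min. In treated cells it was 1.89 to 2.44 in MEFD3plu and 0.911 to 1.33 in MEFD5plu. All 6 treated samples were above all 9 untreated samples for this ratio. The ratio of Per1 to Per2 was 3.99 to 4.15 in MEFD3plu and 3.66 to 4.42 in MEFD5plu, between 2.35 to 2.82 in MEFD0 and the higher ratios of 12.2 to 17.5 in MEFD3min and 7.27 to 12.3 in MEFD5min.

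The cryptochromes, which form the repressor complex with the PER proteins, both rose at day 3. Cry1 (ENSMUSG00000020038, chr10:85131700-85185064, minus strand) was at 14.5, 14.9 and 11.7 CPM in MEFD0, 8.30, 10.2 and 8.81 CPM in MEFD3min and 21.4, 23.7 and 20.4 CPM in MEFD3plu. At day 5 it was at 14.9, 16.6 and 16.7 CPM in MEFD5min and 13.9, 11.4 and 10.3 CPM in MEFD5plu. Treated samples lay above untreated samples at day 3 and below them at day 5, with no overlap at either day. The log2 fold change was 1.26 ± 0.129 at day 3 (2.39-fold, adjusted p = 2.5e-07) and -0.43 ± 0.127 at day 5 (1.35-fold lower, adjusted p = 0.00937). Without MEFD5plu replicate 4 the day 5 difference was -0.34 and missed the threshold (adjusted p = 0.0588). Over the 5 conditions, MEFD3plu was highest and MEFD3min lowest, and MEFD5min, MEFD0 and MEFD5plu between them were not called different from their neighbours in that order (adjusted p of 0.149 and 0.177).

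Cry2 (ENSMUSG00000068742, chr2:92403646-92434043, minus strand) was at 16.8, 14.8 and 11.2 CPM in MEFD0, 17.0, 20.2 and 10.7 CPM in MEFD3min and 36.2, 34.2 and 28.6 CPM in MEFD3plu. It was at 16.1, 17.6 and 16.9 CPM in MEFD5min and 19.7, 14.4 and 16.2 CPM in MEFD5plu. MEFD3plu stood alone above the other 4 conditions, which overlapped and of which no neighbouring pair was called different (adjusted p of 0.475 to 0.973). With treatment at day 3 it rose 2.06-fold (log2 fold change 1.05 ± 0.189, adjusted p = 0.000150). At day 5 the difference was -0.01 ± 0.190 (95% confidence interval -0.41 to 0.39, adjusted p = 0.973), and its sign changed with the sample left out, from -0.14 without MEFD5plu replicate 1 to 0.09 without MEFD5plu replicate 3. On the opposite strand D930015M05Rik covers 4.67% of the exon bases of Cry2, but it had only 5 to 30 counts per sample.

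Arntl, the activator at the centre of the loop, varied least (ENSMUSG00000055116, chr7:113207465-113314126, plus strand). Its level was 38.8, 40.8 and 40.3 CPM in MEFD0, 33.0, 32.8 and 36.2 CPM in MEFD3min and 32.9, 34.9 and 36.8 CPM in MEFD3plu. It was 35.8, 34.9 and 36.9 CPM in MEFD5min and 37.1, 36.1 and 38.2 CPM in MEFD5plu. The MEFD0 samples were above all others and the remaining conditions overlapped. Its condition means spanned 0.23 on the log2 scale, and 0.838% of the genes tested had a smaller range, where the median over all genes was 1.14. With scaling by total counts alone the span was 0.36. The treatment difference was 0.04 ± 0.0740 at day 3 (95% confidence interval -0.12 to 0.19, adjusted p = 0.688) and 0.05 ± 0.0738 at day 5 (-0.11 to 0.20, adjusted p = 0.621), and with total counts alone the day 5 value turned to -0.11, where that scaling moved the median of all genes by -0.16. Arntl fell slightly from MEFD0 to MEFD3min, by 0.23 on the log2 scale (adjusted p = 0.0115), a call that was lost with no filter on low counts (adjusted p = 0.128) and with only the compared samples (adjusted p = 0.0513).

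Nr1d1 and Nr1d2 encode the paired repressors of Arntl, and they parted at day 3. Nr1d1 (ENSMUSG00000020889, chr11:98767932-98775333, minus strand) was at 13.0, 13.8 and 9.99 CPM in MEFD0, 3.42, 5.19 and 2.49 CPM in MEFD3min and 7.67, 11.0 and 9.25 CPM in MEFD3plu. It was at 9.38, 8.53 and 6.76 CPM in MEFD5min and 5.57, 3.67 and 3.62 CPM in MEFD5plu. Treated samples were all above untreated samples at day 3 and all below them at day 5. The log2 fold change was 1.32 ± 0.239 at day 3 (2.50-fold, adjusted p = 0.000153) and -0.94 ± 0.237 at day 5 (1.91-fold lower, adjusted p = 0.00347). The levels fell into an upper set of MEFD0, MEFD3plu and MEFD5min and a lower set of MEFD5plu and MEFD3min. Neighbours within each set were not called different (adjusted p of 0.135, 0.502 and 0.506). The ends of the upper set were: MEFD5min was lower than MEFD0 (-0.58, adjusted p = 0.0446), a call that was lost in some alternatives.

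In untreated cells Nr1d1 fell 3.28-fold from day 0 to day 3 (log2 fold change -1.72 ± 0.238, adjusted p = 8.05e-06) and then rose 2.20-fold to day 5 (1.14 ± 0.240, adjusted p = 0.00101). Its 3′ end overlaps that of Thra on the opposite strand, over 8.55% of its exon bases, and whether counting used strand is not given in the sources used here. Thra moved the other way between MEFD0 and MEFD3min (log2 fold change 1.73 ± 0.0760, adjusted p = 5.2e-12), from 28.8 to 29.6 CPM up to 89.5 to 104 CPM. It went the same way as Nr1d1 with treatment at day 3 (0.48 ± 0.0730, adjusted p = 2.64e-05) and from MEFD3plu to MEFD5plu (-0.81 ± 0.0734, adjusted p = 6.96e-08), and the part of these shared reads in the values of Nr1d1 was not tested.

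The replicates of Nr1d2 (ENSMUSG00000021775, chr14:18204054-18239127, minus strand) lay close together. It was at 79.3, 81.7 and 76.3 CPM in MEFD0, 59.1, 53.7 and 58.2 CPM in MEFD3min and 26.0, 25.8 and 26.1 CPM in MEFD3plu. At day 5 it was at 59.9, 63.0 and 60.7 CPM in MEFD5min and 36.5, 36.6 and 36.3 CPM in MEFD5plu. Treated samples were below all untreated samples at both days. Treatment lowered it 2.20-fold at day 3 (log2 fold change -1.14 ± 0.0679, adjusted p = 2.58e-10) and 1.68-fold at day 5 (-0.75 ± 0.0670, adjusted p = 1.08e-07). Of the 4 neighbouring pairs in its order, MEFD0, MEFD5min, MEFD3min, MEFD5plu and MEFD3plu from high to low, only MEFD5min and MEFD3min were not called different (0.10, adjusted p = 0.231). A sequence annotated as AC170187.1 shares 5.13% of the 50-base stretches of Nr1d2, and how reads that match several places were counted is not given in the sources used here. Within a sample the ratio of Nr1d2 to Nr1d1, both in CPM, was 10.3 to 23.4 in MEFD3min and 2.34 to 3.39 in MEFD3plu.

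Dbp, the D-box activator and a direct target of the ARNTL and CLOCK pair, went against Nr1d1 at day 3 (ENSMUSG00000059824, chr7:45705088-45710203, plus strand). Its level was 6.72, 6.79 and 7.03 CPM in MEFD0, 16.0, 14.1 and 15.4 CPM in MEFD3min and 3.75, 6.71 and 6.65 CPM in MEFD3plu. It was 6.90, 6.89 and 8.49 CPM in MEFD5min and 8.07, 11.0 and 8.41 CPM in MEFD5plu. The 3 untreated samples of day 3 were the highest of all 15. Dbp was 2.65-fold lower in treated cells at day 3 (log2 fold change -1.40 ± 0.179, adjusted p = 3.59e-06). The difference at day 5 was 0.30 ± 0.178 and was not called (95% confidence interval -0.08 to 0.68, adjusted p = 0.174). In untreated cells Dbp rose 2.21-fold from day 0 to day 3 (1.15 ± 0.176, adjusted p = 2.54e-05) and fell 2.04-fold from day 3 to day 5 (-1.03 ± 0.176, adjusted p = 0.000153), which left MEFD5min within 0.12 of MEFD0 (adjusted p = 0.621). The difference between MEFD3plu and MEFD0 was -0.26 and was not called (adjusted p = 0.230).

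Sphk2, on the opposite strand, overlaps 18.0% of the exon bases of Dbp. It rose by 1.10 ± 0.120 at day 3 with treatment (adjusted p = 5.38e-07), the opposite direction to Dbp. The ratio of Dbp to Nr1d1 within a sample, both in CPM, was 2.71 to 6.18 in MEFD3min, 1.45 to 3.00 in MEFD5plu and 0.735 to 1.26 in MEFD5min. It was 0.492 to 0.704 in MEFD0 and 0.489 to 0.720 in MEFD3plu. The untreated cells of day 3 thus had high Dbp with low Nr1d1, and the treated cells of day 3 shared the low ratio of day 0.

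**Figure D3:**
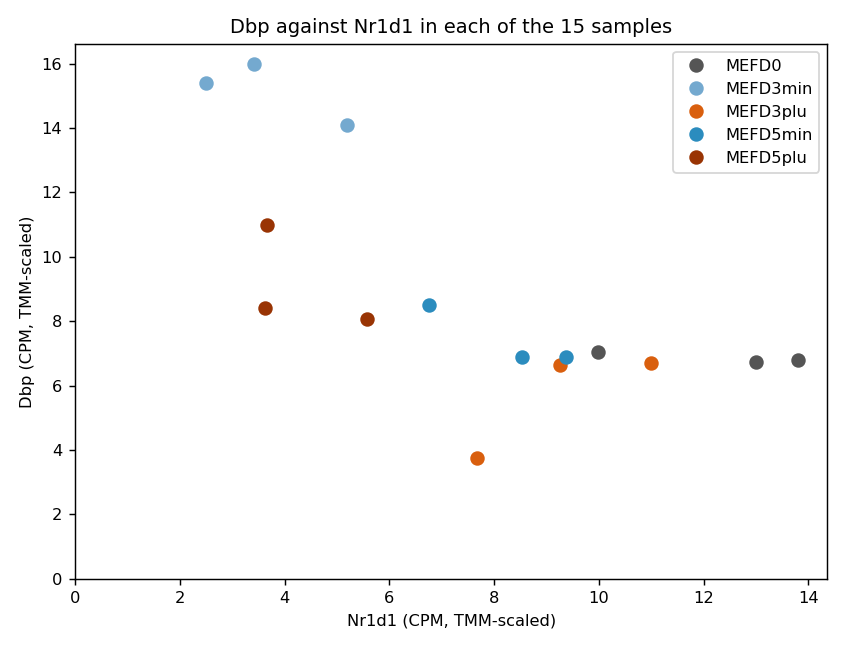
Dbp (vertical axis) against Nr1d1 (horizontal axis) in each of the 15 samples, both in TMM-scaled CPM on linear axes from 0, coloured by condition. The 3 MEFD3min samples sit at the upper left, with 14.1 to 16.0 CPM of Dbp and 2.49 to 5.19 CPM of Nr1d1, and the MEFD0 samples sit at the lower right.

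Bhlhe41 (also called Dec2, ENSMUSG00000030256, chr6:145858243-145865558 on the minus strand) encodes a repressor at E-boxes. It was at 10.5, 11.1 and 9.71 CPM in MEFD0, 2.63, 4.52 and 3.23 CPM in MEFD3min and 1.74, 2.85 and 2.45 CPM in MEFD3plu. It was at 9.58, 17.3 and 10.9 CPM in MEFD5min and 4.94, 3.13 and 3.08 CPM in MEFD5plu. All MEFD0 and MEFD5min samples were above all samples of the other 3 conditions. Treatment lowered it 3.37-fold at day 5 (log2 fold change -1.75 ± 0.248, adjusted p = 1.85e-05). At day 3 the difference of -0.56 ± 0.273 was not called (95% confidence interval -1.14 to 0.02, adjusted p = 0.0930), although it was without MEFD3min replicate 1 (-0.72, adjusted p = 0.0480). In untreated cells it fell 3.00-fold from day 0 to day 3 (-1.59 ± 0.249, adjusted p = 3.24e-05) and rose 3.61-fold from day 3 to day 5 (1.85 ± 0.250, adjusted p = 1.35e-05). Gm43909 overlaps 19.0% of its exon bases on the opposite strand and had at most 11 counts in a sample.

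The difference between the effects of treatment at day 3 and at day 5 was tested as an interaction, in which 8 of the 10 clock genes passed, beside 48.5% of all genes. The effect was more positive at day 3 for Per1, Per2, Cry1, Cry2, Nr1d1 and Bhlhe41 (6 of 10, beside 22.6% of all genes) and more negative at day 3 for Nr1d2 and Dbp (2 of 10, beside 25.8%). For Nr1d2 the call was lost with scaling by total counts alone (-0.20, adjusted p = 0.102), against -0.39 otherwise. The difference was largest for Per2, at 2.40 ± 0.308 (adjusted p = 7.66e-06), and for Nr1d1, at 2.26 ± 0.337 (adjusted p = 3.69e-05). For Per3 (0.40 ± 0.343, 95% confidence interval -0.33 to 1.12) and Arntl (-0.01 ± 0.105, -0.23 to 0.21) no difference was called. For 2 of the 10, Cry1 and Nr1d1, the treated cells were higher at day 3 and lower at day 5, both called. Calls at both days in opposite directions, in either order, occurred in 11.5% of all genes tested.

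From MEFD3plu to MEFD5plu, after the differentiation medium had been replaced, 8 of 10 clock genes passed the test, where 63.0% of all genes did: 3 were higher in MEFD5plu (beside 33.8% of all genes) and 5 were lower (beside 29.2%). Per1 fell by 1.41 ± 0.188 on the log2 scale (adjusted p = 6.07e-06), Per2 by 1.44 ± 0.184 (adjusted p = 3.77e-06), Cry1 by 0.88 ± 0.127 (adjusted p = 1.44e-05), Cry2 by 0.98 ± 0.188 (adjusted p = 0.000248) and Nr1d1 by 1.12 ± 0.236 (adjusted p = 0.000568). These are the 5 genes that were higher in treated cells at day 3. Both comparisons use the MEFD3plu samples, and the share of all genes with this pattern was not counted. Nr1d2 rose by 0.49 ± 0.0679 (adjusted p = 9.11e-06) and Dbp by 0.68 ± 0.181 (adjusted p = 0.00363). Bhlhe41 rose by 0.66 ± 0.272 (adjusted p = 0.0439), but this call was lost in 9 of 22 alternatives. Scaling mattered, with 0.62 under the size factors of DESeq2 (adjusted p = 0.0567) and 0.58 under total counts alone (adjusted p = 0.0809). The value was 0.40 without MEFD5plu replicate 1 (adjusted p = 0.248) and 0.49 without MEFD3plu replicate 1 (adjusted p = 0.169), and it lay between 0.62 and 0.69 (adjusted p of 0.0501 to 0.0718) without any MEFD0 replicate, MEFD3plu replicate 4 or MEFD5min replicate 4.

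Untreated cultures also changed with time. From MEFD0 to MEFD3min, 9 of the 10 clock genes passed the test, beside 60.0% of all genes, with 2 higher, Per1 and Dbp (beside 31.4% of all genes), and 7 lower (beside 28.6%). Only Cry2 was not called (0.17 ± 0.192, 95% confidence interval -0.24 to 0.57). The median absolute log2 fold change was 0.59 for the clock genes, near the 0.55 of all genes. With only the compared samples, 6 of 10 passed. Per1, Per3 and Arntl were then not called (adjusted p = 0.116, 0.0677 and 0.0513). Cry1 fell by 0.59 ± 0.130 on the log2 scale (adjusted p = 0.000875) and Nr1d2 by 0.47 ± 0.0661 (adjusted p = 9.04e-06). The fall of Per3 by 0.59 ± 0.233 (adjusted p = 0.0376) was lost in 6 of 22 alternatives, with -0.32 without MEFD3min replicate 4 (adjusted p = 0.150) and -0.65 to -0.52 (adjusted p of 0.0528 to 0.110) without MEFD3min replicate 1 or MEFD0 replicate 1 or 3. Cry2 was called higher without MEFD3min replicate 4 (0.38, adjusted p = 0.0455).

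From MEFD3min to MEFD5min, 5 of 10 passed, beside 42.8% of all genes, with 4 higher (beside 21.3%) and 1 lower (beside 21.5%). Per2 rose by 0.96 ± 0.249 (adjusted p = 0.00477), Cry1 by 0.82 ± 0.129 (adjusted p = 7.19e-05), and Nr1d1, Bhlhe41 and Dbp changed as given above. These 5 genes were also called from MEFD0 to MEFD3min, each in the opposite direction, and both comparisons share the MEFD3min samples. The share of all genes that did so was not counted. Per1 was called only in some alternatives, such as without MEFD3min replicate 3 (0.75, adjusted p = 0.00124). Between MEFD0 and MEFD5min directly, 5 of 10 passed, beside 46.4% of all genes. Per1 was higher (1 of 10, beside 24.5%), and 4 were lower (beside 21.9%), namely Per2 (-1.05 ± 0.213), Per3 (-0.63 ± 0.233), Nr1d1 (-0.58 ± 0.224) and Nr1d2 (-0.37 ± 0.0660). Median absolute log2 fold changes from MEFD3min to MEFD5min were 0.62 for the clock genes and 0.37 for all genes. Between MEFD0 and MEFD5min they were 0.32 and 0.38.

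Between MEFD0 and MEFD5min, 3 of 10 genes were called when MEFD0 replicate 1 or 3 or MEFD5min replicate 3 or 4 was left out. The call of Per3 between MEFD0 and MEFD5min (adjusted p = 0.0358) was lost without MEFD0 replicate 1 or 3 or MEFD5min replicate 3 or 4, at -0.63 to -0.56 (adjusted p of 0.0742 to 0.109). The call of Nr1d1 (adjusted p = 0.0446) was lost, at -0.60 to -0.48 (adjusted p of 0.0501 to 0.149), without MEFD0 replicate 1 or 3, MEFD3min replicate 1, MEFD3plu replicate 4, MEFD5min replicate 3 or 4, or MEFD5plu replicate 4.

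**Figure D4:**
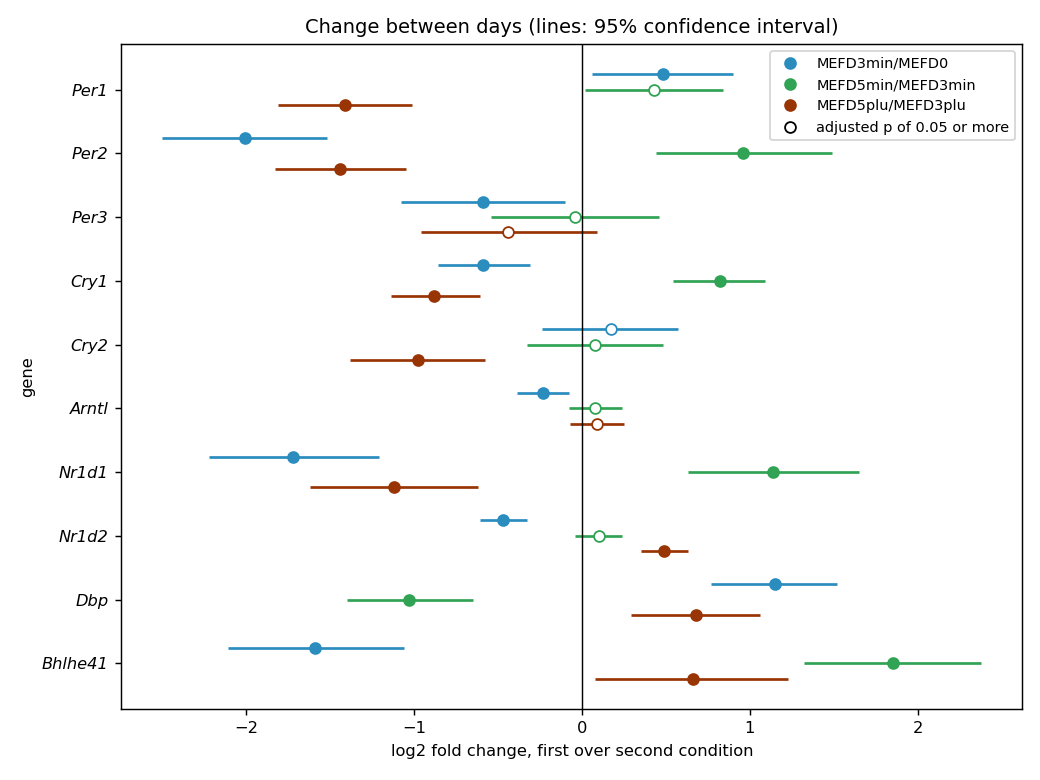
Log2 fold change of each clock gene (horizontal axis) from MEFD0 to MEFD3min, from MEFD3min to MEFD5min and from MEFD3plu to MEFD5plu, with lines for the 95% confidence interval, filled points for genes with an adjusted p under 0.05 and open points for the others. Per2, Cry1, Nr1d1, Dbp and Bhlhe41 moved in opposite directions in the first and the second step of untreated cells, which share the MEFD3min samples.

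Within MEFD3min, replicate 3 was the highest of the 3 for 7 of the 10 genes (Per1, Per2, Per3, Cry1, Cry2, Nr1d1 and Bhlhe41) and replicate 4 was the lowest for 5 (Per1, Per2, Per3, Cry2 and Nr1d1). Over all genes tested, replicate 3 was the highest for 39.9% and replicate 4 the lowest for 40.1%. In MEFD0, replicate 4 was the lowest for 8 of the 10 genes, where 38.0% of all genes had their lowest value, and replicate 3 the highest for 6 (36.0%). In MEFD3plu, replicate 3 was the highest for 6 (33.9%) and replicate 4 the lowest for 5 (37.1%), namely Per1, Per2, Per3, Cry1 and Cry2. In MEFD5min, replicate 3 was the highest for 4 (37.2%) and replicate 1 the lowest for 5 (28.7%). In MEFD5plu, replicate 1 was the highest for 6 (37.8%) and replicate 3 for 3 (34.6%), while replicate 4 was the lowest for 5 (24.6%).

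The other core clock factors and D-box regulators were examined as a list of 12 genes. At day 3, 8 were higher and 1 was lower in treated cells, and at day 5, 5 were higher and 2 were lower, with median log2 fold changes of 0.61 and 0.12. Over all genes tested, 28.0% were higher and 28.0% lower at day 3, and 26.3% were higher and 24.2% lower at day 5. Rorb, a nuclear receptor that activates at the RRE sequences where the REV-ERBs repress, rose by 2.73 ± 0.135 at day 3 and by 1.61 ± 0.141 at day 5 (adjusted p = 2.09e-11 and 7.84e-08). Npas2, which can stand in for CLOCK, rose by 1.59 ± 0.372 at day 5 (adjusted p = 0.00194), at a low level of 0.850 ± 0.138 CPM in MEFD5plu (SD, n = 3).

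Clock itself, looked up after the values were seen, as the partner of ARNTL, rose by 0.89 ± 0.0723 at day 3 and by 0.49 ± 0.0719 at day 5 (adjusted p = 1.33e-08 and 2.74e-05), where Arntl did not pass. Arntl2, a paralogue of Arntl, fell by 2.48 ± 0.210 at day 3 (adjusted p = 2.29e-08), from 6.48 ± 0.978 CPM in MEFD3min to 1.17 ± 0.204 CPM in MEFD3plu (SD, n = 3). At day 5 the difference in Arntl2 was -0.29 ± 0.175 (adjusted p = 0.189).

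The relatives and opponents of Dbp at the D-box did not follow Dbp at day 3. Hlf, an activator of the same family, rose by 2.15 ± 0.218 with treatment (adjusted p = 2.28e-07), and Nfil3, the repressor at the D-box, rose by 1.74 ± 0.130 (adjusted p = 4.93e-09). At day 5 neither was called, with 0.02 ± 0.227 for Hlf and 0.23 ± 0.130 for Nfil3 (adjusted p = 0.962 and 0.154). Bhlhe40, the paralogue of Bhlhe41, was not called at day 3 (0.22 ± 0.143, adjusted p = 0.200). At day 5 it was lower in treated than in untreated cells by 1.09 ± 0.143 (adjusted p = 8.13e-06), as was Bhlhe41. Against MEFD0 the 2 paralogues differed. In MEFD5plu, Bhlhe40 was not called different from MEFD0 (0.23, adjusted p = 0.173), whereas Bhlhe41 was lower (-1.49, adjusted p = 5.1e-05).

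Among 17 kinases, phosphatases, ubiquitin ligases and other enzymes that act on clock proteins, 7 were higher and 5 lower at day 3, and 1 was higher and 5 were lower at day 5. In all, 12 of 17 passed at day 3 and 6 of 17 at day 5, beside 56.1% and 50.5% of all genes. The medians were near 0, at -0.04 and -0.07 on the log2 scale. Usp2, a deubiquitinase, rose by 2.63 ± 0.352 at day 3 (adjusted p = 6.17e-06), and Fbxl21, a ligase that acts on CRY proteins, fell by 2.18 ± 0.342 (adjusted p = 3.53e-05). Both rest on low counts, with 57, 46 and 13 counts of Usp2 in MEFD3min and 7, 20 and 9 counts of Fbxl21 in MEFD3plu. Csnk1e, a kinase of the PER proteins, fell by 0.99 ± 0.0861 at day 5 (adjusted p = 7.36e-08).

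Of 10 genes known as outputs of the clock, 6 were higher and 2 lower at day 3, and 2 were higher and 4 lower at day 5. Beside these counts stand 28.0% of all genes higher and 28.0% lower at day 3, and 26.3% and 24.2% at day 5. Pfkfb3, a regulator of glycolysis, rose at both days, by 2.96 ± 0.124 and 2.03 ± 0.115 (adjusted p = 3.01e-12 and 3.44e-10). Noct, which encodes nocturnin, rose 4.30-fold at day 3 (adjusted p = 1.19e-10) and was not called at day 5 (0.01 ± 0.115, adjusted p = 0.936). Rgs16, a regulator of G protein signalling, fell at both days, by 1.17 ± 0.104 and 1.57 ± 0.0995 (adjusted p = 4.6e-08 and 1.48e-09).

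Since Per1 and Per2 respond to glucocorticoids and to cAMP, other targets of both were set beside them. These lists, like the others, were chosen with earlier results of these data known, so their counts are no independent test. Of 12 glucocorticoid targets, all 12 were higher in treated cells at day 3 (median log2 fold change 2.39) and 8 were higher at day 5 (median 0.70), with none lower, beside 28.0% and 26.3% of all genes higher at these days. All 12 fell from MEFD3plu to MEFD5plu (median -0.88), where 29.2% of all genes fell. Fkbp5, which binds the glucocorticoid receptor, rose by 4.41 ± 0.113 at day 3 (adjusted p = 8.48e-15) and by 1.28 at day 5 (adjusted p = 2.14e-08). Tsc22d3, also called Gilz, rose by 2.83 ± 0.104 and 1.59 ± 0.101 (adjusted p = 5.93e-13 and 1.52e-09). Zbtb16 had no count in any untreated sample and was at least 159-fold higher in MEFD3plu and at least 31.8-fold higher in MEFD5plu. Beside these log2 fold changes, Per1 had 2.24 at day 3 and 0.40, not called, at day 5, and Per2 had 4.07 and 1.67.

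Of 12 targets of cAMP and CREB, 8 were higher and 2 lower at day 3 (median log2 fold change 1.58), whereas 3 were higher and 6 lower at day 5 (median -0.50). The shares of all genes were 28.0% higher and 28.0% lower at day 3, and 26.3% and 24.2% at day 5. Sik1, a kinase induced by cAMP, rose by 2.50 ± 0.151 at day 3 and fell by 1.10 ± 0.144 at day 5 (adjusted p = 2.9e-10 and 7.65e-06). Pde4d, a phosphodiesterase that cuts cAMP, rose by 2.76 ± 0.168 at day 3 (adjusted p = 3.29e-10). Ppargc1a, a coactivator of mitochondrial genes, rose at both days, by 3.69 ± 0.244 and 2.81 ± 0.250 (adjusted p = 9.22e-10 and 9.72e-08). The treated cells of both days share the agents given from day 0 to day 3, so the parts of dexamethasone and IBMX cannot be told apart.

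**Figure D5:**
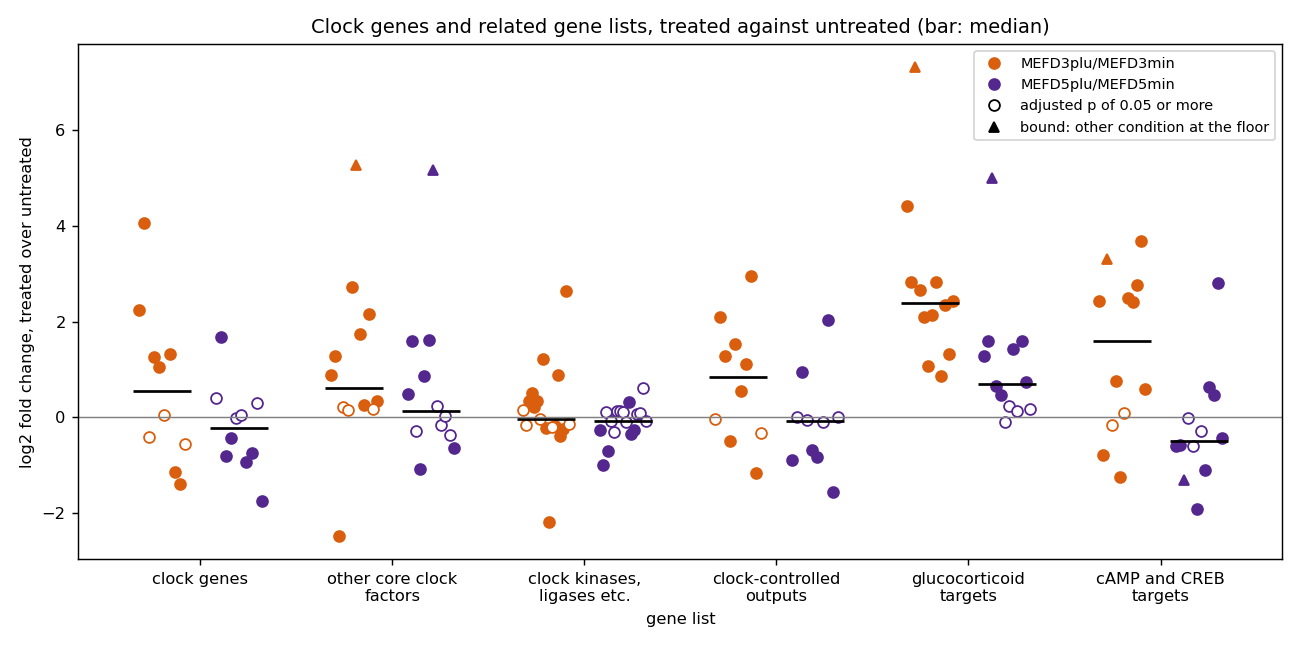
Log2 fold change between treated and untreated cells (vertical axis) at day 3 and day 5 for the 10 clock genes and for the members of 5 related gene lists (horizontal axis), with a bar for each median. Filled points have an adjusted p under 0.05, open points do not, and triangles are bounds for genes at the floor of 3 counts per library in the other condition. All 12 glucocorticoid targets lie above 0 at day 3.

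For each clock gene whose condition means spanned at least 1 on the log2 scale, the 3 genes with the most similar course over the 15 samples were looked up, measured by the root mean square difference of centred log2 CPM. The course of Per1 was closest to that of Klf9, a glucocorticoid target of the list above, with a difference of 0.239, followed by Itpk1 at 0.242 and Noct at 0.245. Mean levels of Klf9 were 22.8, 31.5, 134, 36.1 and 49.9 CPM in MEFD0, MEFD3min, MEFD3plu, MEFD5min and MEFD5plu. Per2 had no match as close among these candidates, with Tbc1d4 at 0.454, Slc25a10 at 0.465 and Slc1a5 at 0.473. Genes at lower levels were not searched.

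The closest to Cry1 was Alg13 (0.174), to Cry2 Hdhd5 (0.143) and to Per3 Tmppe (0.220). Nr1d1 was closest to L3mbtl2 (0.241) and Nr1d2 to Cacnb2 (0.106), the smallest difference found. Dbp was closest to Pcdhb20 (0.206) and Pcdhb17 (0.231), of the protocadherin beta cluster, and Bhlhe41 to Dusp5 (0.305), while Jun was at 0.352. No clock gene was among the 3 closest of another, although clock genes under the limit on the mean level could not be listed there. Between members, compared without that limit, Cry1 and Cry2 were the most alike, at 0.338, and Per2 and Bhlhe41 the least alike, at 2.01.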

How the data were processed

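RNA of 15 samples was sequenced, and per the labels and processing notes the authors aligned the reads to GRCm38/mm10 with TopHat2 2.1.0 and counted them per Ensembl gene with HTSeq. The deposited values are raw counts, unnormalised. The labels and the study's methods name different library kits, of which only one marks strand, and the strand setting of the counting is not given in the sources used here. DESeq2 is also named in the processing notes.

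Counts were analysed in R 4.3.3 with edgeR 4.0.16 and limma 3.58.1. Genes were filtered with filterByExpr, libraries were scaled with TMM, and all 15 samples were fitted together, 3 per condition. Contrasts were tested two-sided with the quasi-likelihood F test, and p-values were adjusted with the Benjamini-Hochberg method over 15997 genes at a threshold of 0.05. The same steps were tested on simulated data. Symbols, exons and positions were taken from GENCODE M21. Lengths for CPM per kb are the summed exon bases. Similar courses were measured on edgeR log2 CPM values (prior count 2). A fold against a condition at or under 3 counts per library was computed against that floor. Intervals and floors cover counting error and the spread between these samples only. The 10 genes and all gene lists were chosen with earlier results of these data known. From each list, up to 4 genes per comparison with the largest called change were named. A gene that this rule would name is not reported here.

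The replicate numbers were checked for pairing by correlating the deviations of same-numbered samples from their condition means. Between MEFD3min and MEFD3plu every correlation was over 0.1 (0.143 to 0.36), which was not so for the other 9 pairs of conditions. MEFD0 and MEFD3min came close, at 0.0837 to 0.18. Samples with different numbers were not correlated, so the check cannot decide whether the numbers pair the samples. The main fit held no replicate term, and the replicate number entered only as an alternative. The alternatives were DESeq2 1.42.0, its size factors in edgeR, total counts alone, no filter, at least 10 counts in every sample, only the compared samples, the replicate number as a block, and leaving out each sample in turn.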

Additional observations from a re-analysis of the deposited data

Results flagged for a closer look

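The effect of treatment differed between day 3 and day 5 for 8 of the 10 clock genes in the interaction term of edgeR's quasi-likelihood fit, beside 48.5% of all genes. The day 3 effect minus the day 5 effect, on the log2 scale, was 2.40 for Per2 (adjusted p = 7.66e-06), 2.26 for Nr1d1 (adjusted p = 3.69e-05), 1.84 for Per1 (adjusted p = 3.03e-05) and 1.69 for Cry1 (adjusted p = 1.03e-06). It was 1.19 for Bhlhe41 (adjusted p = 0.0131), 1.05 for Cry2 (adjusted p = 0.00364), -0.39 for Nr1d2 (adjusted p = 0.00278) and -1.70 for Dbp (adjusted p = 3.4e-05). The call of Nr1d2 was lost with scaling by total counts alone (-0.20, adjusted p = 0.102). Among the 8 genes, Cry1 and Nr1d1 moved in opposite directions at the 2 days with no overlap between treated and untreated samples, whereas Bhlhe41 had a negative value at both days. The 2 days also differ in medium, since the agents were present until day 3 only, so time and the removal of the agents cannot be told apart.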

How the results depend on the processing

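Over 22 alternative settings and 7 comparisons, 1540 fitted values of the 10 genes were recomputed. Of these, 1452 kept their direction and their side of the threshold, 43 lost and 21 gained a call, and 24 changed sign, none of which was called at first. The count of clock genes called stayed within 1.5 times the first count in every comparison except MEFD5min/MEFD0, where leaving out single samples gave 3 to 5 (3 without MEFD0 replicate 1 or 3 or MEFD5min replicate 3 or 4). In MEFD3min/MEFD0 the count went from 9 to 6 with only the compared samples, which is at that limit. The replicate block changed no call in MEFD3plu/MEFD3min, where 7 genes passed with and without it, and gave 7 called genes in MEFD5plu/MEFD5min, in place of 6, by adding Per1 (adjusted p = 0.0312), and 6 in MEFD5min/MEFD3min, in place of 5, again with Per1 (adjusted p = 0.0205). It changed no other count.

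The values that changed sign were small. With total counts alone, Arntl was -0.11 in MEFD5plu/MEFD5min and 0.17 in the interaction, and Per3 was 0.05 in MEFD5min/MEFD3min, where the block gave 0.01. The interaction of Arntl was 0.03 with DESeq2, with its size factors and with only the compared samples. Leaving out single samples gave, for Arntl, -0.00 to 0.09 in MEFD3plu/MEFD3min and -0.05 to 0.04 in the interaction. For Cry2 it gave -0.14 to 0.09 in MEFD5plu/MEFD5min, -0.04 to 0.38 in MEFD3min/MEFD0 and -0.14 to 0.29 in MEFD5min/MEFD3min. For Per3 it gave -0.31 to 0.23 in MEFD5min/MEFD3min, and in MEFD5min/MEFD0 it gave -0.02 to 0.17 for Dbp and -0.02 to 0.43 for Bhlhe41. The cause was not tested. Scaling by total counts moved the median of all genes by -0.16 in MEFD5plu/MEFD5min, 0.18 in the interaction and -0.12 in MEFD3min/MEFD0. With 3 samples per condition and a single harvest, neither the spread between cultures nor the daily rhythm could be measured, and Per2 in MEFD3min rests on the lowest counts of the 10 genes.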
